A study of Rattus norvegicus with 24 samples.

Results

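Lungs of rats that received crystalline silica in addition to cigarette smoke were set against lungs of rats that received cigarette smoke alone. The 12 libraries were chosen by their exposure labels alone, as 6 libraries labelled with both exposures and 6 labelled with smoke, of 24 libraries in all, and 13322 of 30043 genes had enough counts to be tested. All animals were male Fischer rats (F344/DuCrl), bought at 3 months of age, and a piece of lung was sequenced from each after whole-body inhalation over 29 weeks. The combined group breathed smoke at 45 mg/m3 in week 1 and 80 mg/m3 in week 2, respirable silica dust (Min-U-Sil5) at 15 mg/m3 for 6 h a day on 5 days of week 3, and smoke at 80 mg/m3 in weeks 4 to 29. The smoke group breathed smoke at 40 mg/m3 in week 1 and 80 mg/m3 in week 2, air in week 3, and smoke at 80 mg/m3 in weeks 4 to 29. Smoke was given for 3 h on each of 2 days a week. The starting smoke level thus differed between the groups, and its part in any difference cannot be told apart from that of silica. The other 12 libraries, 6 from rats given the same silica exposure in week 3 and air in all other weeks and 6 from rats given air throughout, served to show what silica did without smoke. They also entered the same fit, and so had a part in the gene filter and the estimate of spread behind every call.

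Crystalline silica is taken up by alveolar macrophages, which cannot digest it. The particles damage lysosomes, and macrophages that hold them release chemokines that draw monocytes and neutrophils into the airspaces. Alveolar type 2 cells, which make surfactant and give rise to the thin type 1 cells of gas exchange, are known to enlarge and multiply in the silica-exposed rat lung, and surfactant lipid and protein can build up there. Cigarette smoke by itself also loads macrophages with lipid and induces oxidant defence genes.

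Levels are given as CPM, which are counts scaled to a common library size with TMM (a factor per library that sets the bulk of genes level), and differences as log2 fold changes of combined over smoke with their standard error after the ± sign. A gene was called where edgeR's quasi-likelihood test gave an adjusted p under 0.05. Total counts were 1084815 to 2987836 in 11 of the 12 libraries, with 16413 to 18176 genes seen, so 3 counts stood at 0.986 to 2.80 CPM. Smoke 2 held 21629 counts, of which 56.0% were haemoglobin against 0.249% to 1.54% in the others, and its values are given here as counts. Replicates are numbered in the order of deposit. The library labelled smoke 1 stood apart from smoke 3 to 6 in many of the genes below, on the side of the combined libraries. It held 56.9 CPM of the macrophage gene Mmp12. The library labelled silica 1 held 3.18 CPM, against 57.1 to 75.4 CPM in silica 2 to 6 and 2.29 to 17.8 CPM in air lungs. Of the peroxidase gene Lpo smoke 1 held 44.7 CPM, within the 35.7 to 59.9 CPM of silica 2 to 6. Silica 1 held 0 CPM of Lpo, and air lungs at most 0.204 CPM. Of the macrophage gene Spp1 smoke 1 held 32.9 CPM, below the 50.7 to 108 CPM of silica 2 to 6, and silica 1 held 1.82 CPM. Whether the labels of smoke 1 and silica 1 are right was not tested. Results are therefore given for all libraries, and the main counts and some genes also without smoke 1 and smoke 2. These genes include the 12 whose value moved over 1.5 times without smoke 1. A single log2 fold change is from all libraries, also where the CPM beside it are of smoke 3 to 6. For a set of 78 called genes named here, leaving out smoke 1 alone gave a log2 fold change within 0.227 of the value without both. The haemoglobin genes, high in smoke 2, were not in this set. One of them, Hba1, stood at -4.53 without smoke 1 and -0.61 without both. The labelled tissue was checked with lung markers: the surfactant gene Sftpc stood at 6213 to 8463 CPM in combined lungs and 4821 to 6149.8 CPM in smoke 3 to 6, the club cell gene Scgb1a1 at 1027 to 2452 CPM and 2332 to 2828 CPM, and the endothelial gene Pecam1 at 189 to 225 CPM and 249.7 to 302 CPM. Fewer cells of a type and less RNA per cell cannot be told apart in such bulk tissue.

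In combined lungs 976 genes were higher than in smoke lungs (7.33% of those tested) and 742 were lower (5.57%). Without smoke 1 and smoke 2 the counts were 1363 higher (10.0%) and 1149 lower (8.44%) of 13608 tested, and 958 of the higher and 707 of the lower genes were called both ways. Rises were larger than falls, with a median log2 fold change of 0.58 among the higher genes and -0.49 among the lower genes, and 160 genes rose and 33 fell by at least 2-fold. Without smoke 1 and smoke 2 all 6 combined libraries lay above all smoke libraries in 1205 genes (9.05%) and below them in 1088 (8.17%). With all 12 libraries the counts were 601 (4.51%) and 34 (0.255%). These last counts do not compare the directions, since smoke 2, in which 3469 genes were seen, holds 0 for most genes, and no library can lie below a 0. Lying above smoke 2 therefore adds little wherever it is stated below. The counts of called genes were 581 higher and 324 lower without smoke 3, and 586 higher and 389 lower without smoke 4. The lower count was 489, 488 and 485 without combined 2, combined 3 and combined 6, and 440 without smoke 6. The median log2 fold change of all genes tested was 0.00, against which the medians of the gene lists below can be read.

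**Figure D1:**
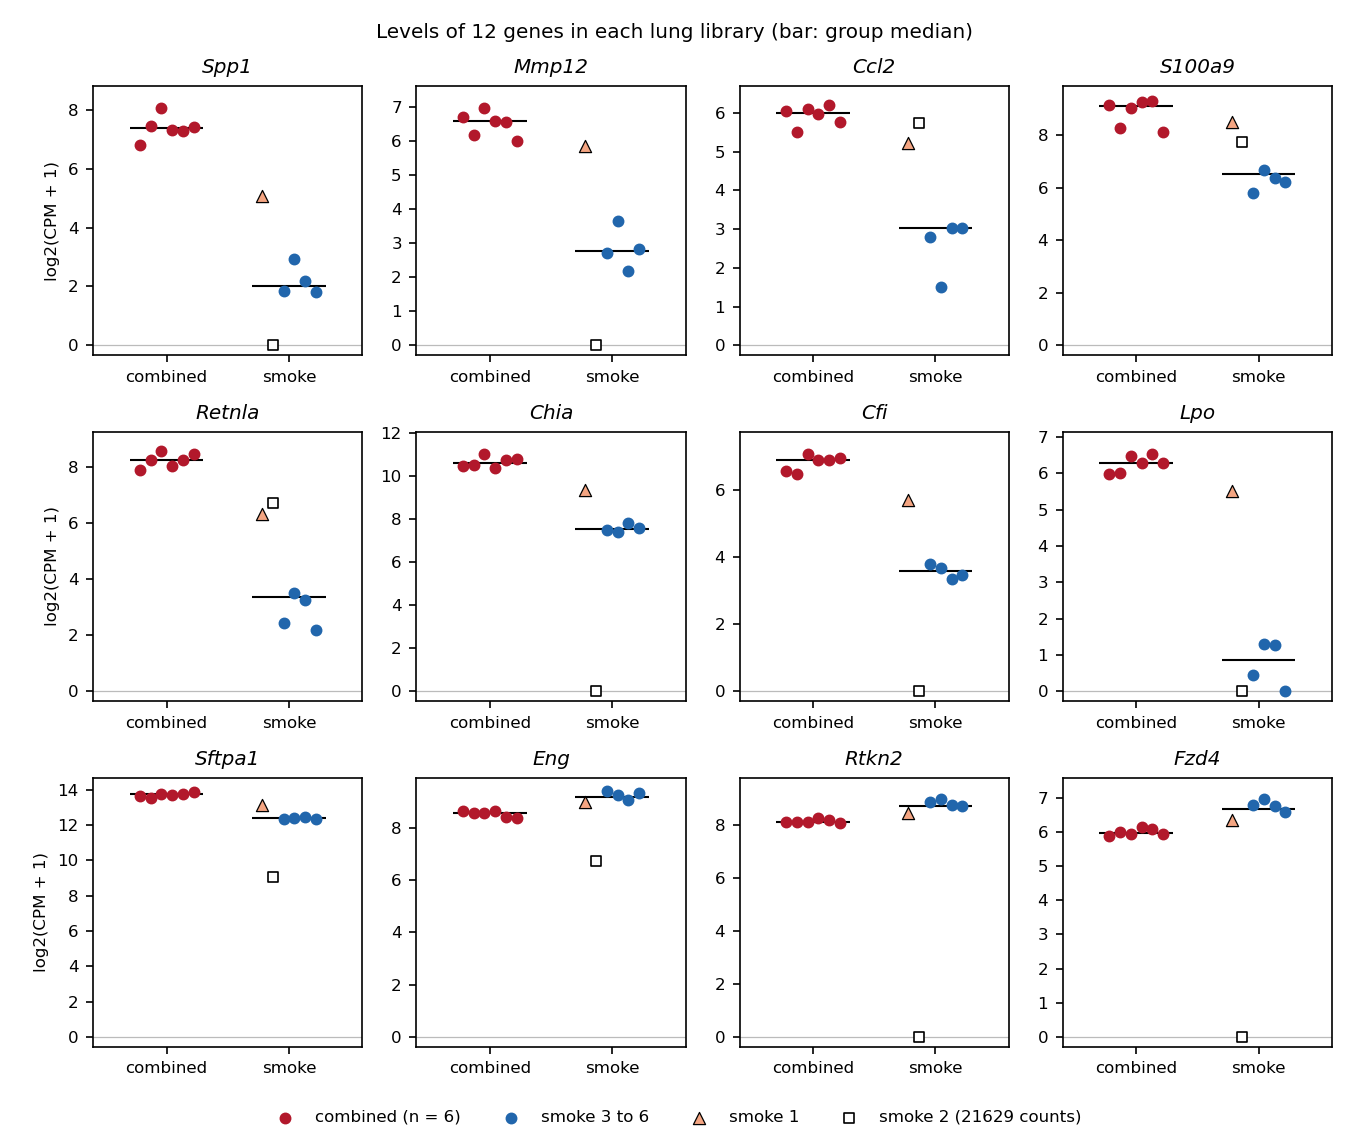
Level of 12 genes in every library, as log2(CPM + 1) on the vertical axis, with the 6 combined libraries left of the 6 smoke libraries, bars at the group medians, a triangle for smoke 1 and a square for smoke 2, which held 21629 counts. In the first 9 panels all combined libraries lie above smoke 3 to 6. Smoke 1 lies between them except for S100a9, where it lies among the combined libraries, while in the panels of Eng, Rtkn2 and Fzd4 all combined libraries lie below smoke 3 to 6.

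Genes of macrophages that hold lipid and particles were higher with silica. Spp1 (osteopontin, a secreted glycoprotein that binds integrins and CD44; gene identifier 25353) stood at 113 to 269.9 CPM with a median of 166 CPM in combined lungs, against 2.53 to 6.60 CPM with a median of 3.06 CPM in smoke 3 to 6, 32.9 CPM in smoke 1 and 0 counts in smoke 2. Every combined library lay above every smoke library, the log2 fold change was 3.99 ± 0.51 (edgeR adjusted p = 2.94e-05), and it was 5.45 ± 0.61 without smoke 1 and smoke 2. Mmp12, the elastase of macrophages (gene identifier 117033), ranged from 63.2 to 126 CPM with a median of 94.9 CPM in combined lungs, against 3.55 to 11.7 CPM with a median of 5.80 CPM in smoke 3 to 6 and 56.9 CPM in smoke 1. Its groups did not overlap either, with log2 values of 2.31 ± 0.49 (adjusted p = 0.00315) with all libraries and 3.69 ± 0.53 without smoke 1 and smoke 2. Fabp4, a carrier of fatty acids, rose by 2.33 ± 0.27 on the log2 scale to 64.4 to 97.6 CPM, against 11.0 to 19.2 CPM in smoke 3 to 6. The lysosomal glycoprotein Gpnmb rose by 1.30 ± 0.34, and the galactose-binding lectin Lgals3, which gathers on damaged lysosomes, by 1.24 ± 0.25. Of 19 tested genes of lipid-handling macrophages 13 were higher and 0 lower, with a median of 0.66, and 15 were higher without smoke 1 and smoke 2.

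General macrophage markers had 9 of 16 tested genes higher and 0 lower (median 0.56), and the count was 5 without smoke 3 or without smoke 4. The inhibitory Fc receptor Fcgr2b stood at 66.6 to 82.1 CPM in combined lungs, against 13.2 to 29.8 CPM in smoke 3 to 6 and 39.8 CPM in smoke 1, a rise of 1.70 ± 0.25. Siglec1, the sialic acid receptor of resident macrophages, rose by 1.01 ± 0.18, to 42.7 to 69.8 CPM against 19.2 to 28.9 CPM in smoke 3 to 6. In both genes all combined libraries lay above all smoke libraries. Cd163, the haemoglobin scavenger receptor, did not pass and lay at 7.46 to 10.4 CPM in combined lungs and 7.33 to 10.7 CPM in smoke 3 to 6 (-0.14 ± 0.27, adjusted p = 0.789). Of 21 activating and inhibitory myeloid receptors 6 were higher and 0 lower, and 3 were higher without smoke 3. The one with the largest fold was Lilrb4, an inhibitory receptor, at 146 to 202 CPM in combined lungs, 32.9 to 46.2 CPM in smoke 3 to 6 and 92.0 CPM in smoke 1 (1.76 ± 0.20, adjusted p = 5.31e-06). Integrins of leukocytes had 4 of 10 members higher (Itgal, Itgam, Itgax and Itgb2) and 0 lower. Itgam, the alpha chain of complement receptor CR3 on neutrophils and macrophages, rose by 1.62 ± 0.19, to 81.3 to 113 CPM against 22.4 to 27.2 CPM in smoke 3 to 6.

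The lysosome list, which holds cathepsins, other hydrolases, membrane proteins and subunits of the proton pump (V-ATPase), had the largest share of higher members among lists with at least 8 tested genes. Of 28 genes 21 were higher and 0 lower, with a median of 0.42; 23 were higher without smoke 1 and smoke 2, and 12 without smoke 4. Ctsk, a collagen-degrading cathepsin, stood at 41.1 to 81.6 CPM in combined lungs, against 15.5 to 24.9 CPM in smoke 3 to 6 and 30.6 CPM in smoke 1 (1.38 ± 0.27). Ctsz, a cathepsin that trims proteins from the end, rose by 1.12 ± 0.19, and Ctsh, a cathepsin that also processes surfactant proteins, by 1.19 ± 0.19. Atp6v0d2, a pump subunit of osteoclasts and macrophages, rose by 1.29 ± 0.33. In each of these 4 genes all combined libraries lay above all smoke libraries. The summed level of the list was 8303 to 10108 CPM in combined lungs, 5131 to 6192 CPM in smoke 3 to 6 and 7348 CPM in smoke 1.

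Since the members of both lists moved together, the 250 bases before the start of each gene (RefSeq, build GRCr8) were searched on both strands for the letters of known regulatory motifs. The letters GTCACGTG, the core of the E-box that binds TFEB in lysosomal genes, were in 6 of 20 lysosome genes with an entry (30.0%), against 1.78% of all 27457 promoters. The letters TGANTCA, the site of AP-1, were in 3 of 15 entries of lipid-handling macrophage genes (Mmp12, Gpnmb and Cd63) and 4 of 23 of chemokine ligands (Ccl7, Cxcl10, Cxcl11 and Cxcl14), against 6.36% of all promoters. Of the E-box genes Ctsd, Lamp1, Gaa and Glb1 were higher, while Atp6v0d1 and Mcoln1 were not called (adjusted p = 0.0676 and 0.339). Of the AP-1 genes Mmp12, Gpnmb, Cd63 and Ccl7 were higher. Cxcl14 was not called (-0.34, adjusted p = 0.529), and Cxcl10 and Cxcl11 were not tested. The 4 sequences below are shown because they hold these letters, in capitals, in genes of the lists that rose; the E-box appears in them as its reverse complement. They are promoters of Mmp12 (chr8:12866402-12866651, plus strand), Gpnmb (chr4:79340878-79341127, plus strand), Ctsd (chr1:206968822-206969071, minus strand) and Lamp1 (chr16:83075064-83075313, minus strand).
Mmp12: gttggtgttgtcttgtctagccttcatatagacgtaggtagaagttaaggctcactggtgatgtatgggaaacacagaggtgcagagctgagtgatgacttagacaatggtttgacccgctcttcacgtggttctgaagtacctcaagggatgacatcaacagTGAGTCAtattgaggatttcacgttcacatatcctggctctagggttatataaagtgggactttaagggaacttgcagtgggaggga
Gpnmb: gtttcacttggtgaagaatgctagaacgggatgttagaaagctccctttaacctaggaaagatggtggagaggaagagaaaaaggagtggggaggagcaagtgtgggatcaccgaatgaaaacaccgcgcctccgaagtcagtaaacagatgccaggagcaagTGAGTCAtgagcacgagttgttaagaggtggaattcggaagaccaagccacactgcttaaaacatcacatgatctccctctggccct
Ctsd: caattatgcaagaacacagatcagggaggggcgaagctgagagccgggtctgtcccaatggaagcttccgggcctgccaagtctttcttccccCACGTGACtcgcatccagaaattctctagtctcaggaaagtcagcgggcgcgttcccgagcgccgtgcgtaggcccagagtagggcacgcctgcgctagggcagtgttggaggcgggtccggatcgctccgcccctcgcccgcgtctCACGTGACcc
Lamp1: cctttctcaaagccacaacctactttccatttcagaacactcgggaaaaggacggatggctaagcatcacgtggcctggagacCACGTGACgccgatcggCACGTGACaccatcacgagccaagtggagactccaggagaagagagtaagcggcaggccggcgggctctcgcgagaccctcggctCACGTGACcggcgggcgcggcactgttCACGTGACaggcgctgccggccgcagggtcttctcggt
The AP-1 letters begin 87 bases before the start in Mmp12 and 87 bases before it in Gpnmb. In Ctsd the E-box letters begin 157 and 10 bases before the start, and in Lamp1 they begin 167, 150, 65 and 38 bases before it. Ctsd, the aspartic protease cathepsin D, and Lamp1, the main glycoprotein of the lysosome membrane, were picked for their promoters after their values had been seen. Ctsd stood at 1953 to 3002 CPM in combined lungs and 1053 to 1564 CPM in smoke 3 to 6 (0.84 ± 0.24, adjusted p = 0.0216), a call lost without combined 6 (adjusted p = 0.0541) or smoke 4 (0.0643). Lamp1 stood at 703 to 890.3 CPM in combined lungs and 533 to 662 CPM in smoke 3 to 6 (0.43 ± 0.12, adjusted p = 0.0146), a call lost without smoke 4 (0.0530). The letters TGACNNNGC (antioxidant response element) were in 8 of 21 entries of NRF2 and antioxidant genes against 10.2% of all promoters, and GGGNNTTCC (NF-kB) in 5 of 23 chemokine ligands against 5.16%. Of the former Gpx2, Sod2 and Prdx1 were higher, Gclm, Gstp1 and Ugdh were not called, and Gsta3 and Mt2A were not tested. None of the NF-kB genes was called. Ccl9, Cxcl2 and Cxcl9 had adjusted p = 0.0530, 0.999 and 0.0605, and Ccl19 and Ccl20 were not tested. TCACNCCAC (sterol regulatory element) was in 0 of 13 entries of cholesterol genes against 0.976% of all promoters. Longer forms were searched as well: TCACGTGA was in 3 of 20 lysosome genes (0.743% of all promoters), a longer NF-kB site in 2 of 23 chemokine ligands (0.317%) and a longer sterol regulatory element in 0 of 13 cholesterol genes (0.215%). The 2 chemokine ligands, Cxcl1 and Cxcl6, were not called. AP-1 and antioxidant letters can overlap. These matches describe letters in the window and say nothing about whether a factor bound there.

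Chemokines and neutrophil genes were also higher with silica. Ccl2, the main attractant of monocytes (gene identifier 24770), stood at 44.6 to 72.7 CPM with a median of 63.2 CPM in combined lungs, against 1.83 to 7.09 CPM with a median of 6.49 CPM in smoke 3 to 6, 36.2 CPM in smoke 1 and 1 count in smoke 2. All combined libraries lay above smoke 1 and smoke 3 to 6, and the log2 fold change was 2.26 ± 0.42 (adjusted p = 0.00113), or 3.55 ± 0.43 without smoke 1 and smoke 2. Its neighbour in function Ccl7 rose by 2.56 ± 0.41 (3.65 ± 0.45 without smoke 1 and smoke 2), and Cxcl17, a mucosal chemokine of the airway, by 0.58 ± 0.16. Of 19 chemokine ligands 5 were higher and 0 lower, the others being Ccl3 and Cxcl16. The count was 8 without smoke 1 or without both smoke 1 and smoke 2, and 3 without combined 6, smoke 3, smoke 4 or smoke 6. S100a9 and S100a8 are the subunits of calprotectin, an abundant protein of the neutrophil cytosol. S100a9 stood at 274 to 636 CPM with a median of 548 CPM in combined lungs, against 54.4 to 102 CPM with a median of 77.4 CPM in smoke 3 to 6 and 359 CPM in smoke 1. That was a rise of 1.82 ± 0.39, or 2.65 ± 0.37 without smoke 1 and smoke 2, and the values of smoke 1 and of the combined libraries overlapped. S100a8 rose by 1.32 ± 0.30 (1.84 ± 0.30 without both). Of 12 neutrophil markers 5 were higher and 0 lower (median 0.60, and 1.01 without smoke 1 and smoke 2). In the interleukin 1 system 3 of 18 genes were higher (Il1rn, Il18 and the pore-forming Gsdmd) and 1 was lower, with 6 higher without smoke 1 and 5 without both. The receptor antagonist Il1rn rose by 1.12 ± 0.25, and Il33, an alarm cytokine kept in the nuclei of barrier cells, was the member that fell, with 189 to 321 CPM in combined lungs and 359.6 to 422 CPM in smoke 3 to 6 (-0.50 ± 0.12, adjusted p = 0.00801). Lcn2, a neutrophil and epithelial protein that binds bacterial iron carriers, did not pass (0.46 ± 0.42, adjusted p = 0.513). It lay at 39.0 to 56.3 CPM in combined lungs, 11.4 to 29.9 CPM in smoke 3 to 6 and 70.3 CPM in smoke 1, and passed with limma voom and quality weights (0.96, adjusted p = 0.0276).

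Complement genes rose widely. Of 23 tested 14 were higher and 0 lower, with a median of 0.61, and 16 were higher without smoke 1 and smoke 2. The summed level of the list was 6588 to 7972 CPM in combined lungs, 3019.8 to 3430.3 CPM in smoke 3 to 6 and 5583 CPM in smoke 1. C3, the central component, stood at 2085 to 2538 CPM in combined lungs, against 639 to 815 CPM in smoke 3 to 6 (1.40 ± 0.28), and C4b, a component of the classical and lectin pathways, at 174 to 393 CPM against 63.6 to 116 CPM (1.39 ± 0.24). Regulators rose too. Cfi, the protease that cleaves C3b, stood at 88.2 to 135 CPM in combined lungs, 9.22 to 12.9 CPM in smoke 3 to 6 and 50.6 CPM in smoke 1 (2.46 ± 0.37, and 3.31 ± 0.38 without smoke 1 and smoke 2). C4bpa, the alpha chain of C4b-binding protein, rose by 1.62 ± 0.28. All 4 genes had every combined library above every smoke library. Acute phase genes had 6 of 10 members higher and 0 lower. Hp (haptoglobin, which binds free haemoglobin) rose by 1.45 ± 0.24, to 119.5 to 154 CPM against 33.9 to 38.3 CPM in smoke 3 to 6. The long pentraxin Ptx3, a soluble pattern receptor, rose by 1.45 ± 0.30 and the fibrinogen gamma chain Fgg by 1.12 ± 0.16.

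Genes known from airway defence, some of them for secreted proteins, formed another group of higher genes. Which cells these rises came from was not tested. Lpo, the lactoperoxidase of airway glands, stood at 61.8 to 92.4 CPM in combined lungs, 0 to 1.47 CPM in smoke 3 to 6 and 44.7 CPM in smoke 1. The log2 fold change was 2.77 ± 0.57 with all libraries and 6.51 ± 0.68 without smoke 1 and smoke 2, with smoke 3 to 6 at or near the level of 3 counts. With DESeq2 the gene did not pass (adjusted p = 0.0801). Duox1, an oxidase that supplies hydrogen peroxide to lactoperoxidase, rose by 1.85 ± 0.20 and its maturation factor Duoxa1 by 1.20 ± 0.28. Slc26a4, the anion exchanger pendrin, stood at 184 to 229 CPM in combined lungs, 10.7 to 27.1 CPM in smoke 3 to 6 and 134 CPM in smoke 1 (2.24 ± 0.50, and 3.51 ± 0.52 without both). In all, 6 of 9 genes of this list were higher and 0 lower. Bpifb1, a secreted protein of airway epithelium in the family of bacterial permeability proteins, rose by 2.66 ± 0.63 (4.42 ± 0.77 without both). Chia, the acidic chitinase, ranged from 1333 to 2114 CPM with a median of 1577 CPM in combined lungs, against 170.1 to 226 CPM with a median of 185 CPM in smoke 3 to 6 and 647 CPM in smoke 1. It rose by 2.55 ± 0.38 (adjusted p = 0.000185), and the chitinase-like Chi3l1 rose by 1.60 ± 0.25, to 569 to 707 CPM against 121 to 177 CPM in smoke 3 to 6. Retnla, a secreted resistin-like protein of macrophages and airway cells, reached 236 to 382 CPM with a median of 303 CPM in combined lungs, against 3.55 to 10.3 CPM with a median of 6.46 CPM in smoke 3 to 6 and 78.5 CPM in smoke 1 (3.69 ± 0.55, and 5.51 ± 0.60 without both). Airway secretory genes had 3 of 13 members higher (Bpifb1, the mucin Muc1 and the immunoglobulin transporter Pigr) and 0 lower, or 5 higher without smoke 1 and 1 without smoke 3 or smoke 6. The list had, without smoke 1 and smoke 2, 4 higher and 2 lower, which were Cyp2b1 and the club cell gene Scgb1a1, and 2 were lower without smoke 2 alone. Scgb1a1 did not pass with all libraries (-0.37 ± 0.24, adjusted p = 0.338) and was lower without smoke 1 and smoke 2 (-0.57 ± 0.16, adjusted p = 0.0147) and without smoke 2 (-0.51, adjusted p = 0.0293). Its values overlapped between the groups.

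The lists of alveolar type 2 and type 1 genes showed opposite counts. The type 2 list also holds Ctsh and Cd74, which are reported with the lysosome and the antigen presentation genes. Of 19 type 2 and surfactant genes 11 were higher and 1 was lower (Il33, above), with a median of 0.71. Their summed level was 60952 to 72838 CPM in combined lungs, 35335 to 39838 CPM in smoke 3 to 6 and 51109 CPM in smoke 1. The largest part of that sum was Lyz2, a lysozyme made by type 2 cells and also by macrophages, whose markers were higher too. Lyz2 stood at 28645 to 35973 CPM in combined lungs, 14631 to 17452 CPM in smoke 3 to 6 and 24226 CPM in smoke 1 (1.11 ± 0.33, adjusted p = 0.0254). Its call was lost with the 12 libraries alone (adjusted p = 0.157), without smoke 3 (0.0575) and without smoke 4 (0.0565). Which cells the rises of Lyz2 and of the other genes of the list came from was not tested. The collectins of surfactant rose, Sftpa1 by 1.33 ± 0.31 to 11616 to 15057 CPM against 5191 to 5621 CPM in smoke 3 to 6, and Sftpd by 1.11 ± 0.20 to 1361 to 1927 CPM against 576 to 693 CPM. Sftpc, the hydrophobic surfactant protein specific to type 2 cells, did not pass with all libraries (0.53 ± 0.28, adjusted p = 0.215) or without smoke 1 and smoke 2 (0.38 ± 0.16, adjusted p = 0.0913). It passed at 0.36 without silica 1, smoke 1 and smoke 2 (adjusted p = 0.0436). Of 15 type 1 markers 0 were higher and 5 lower (median -0.31), and 10 were lower without smoke 1 and smoke 2. The lower ones were Pdpn, Cav1, Rtkn2, Clic5 and Spock2. The lower count was 1 to 3 without combined 1, 2, 3, 5 or 6 or without smoke 3, 4, 5 or 6. Rtkn2, used as a marker of type 1 cells, stood at 273 to 309.8 CPM in combined lungs, 421 to 505 CPM in smoke 3 to 6 and 352 CPM in smoke 1, and stayed called as each library was left out (-0.58 ± 0.14, adjusted p = 0.00561). Ager, the abundant type 1 receptor, lay at 1149.6 to 1317 CPM in combined lungs and 1290.3 to 1495 CPM in smoke 3 to 6 and did not pass (-0.06 ± 0.17). Ciliated cell genes had 1 of 19 higher (Tekt2) and 3 lower (Dnah9, Ccdc40 and Rsph1), with 0 or 1 lower without combined 2, 3 or 6 or smoke 3 or 6 and 7 without smoke 2, and 5 without smoke 1 and smoke 2.

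**Figure D2:**
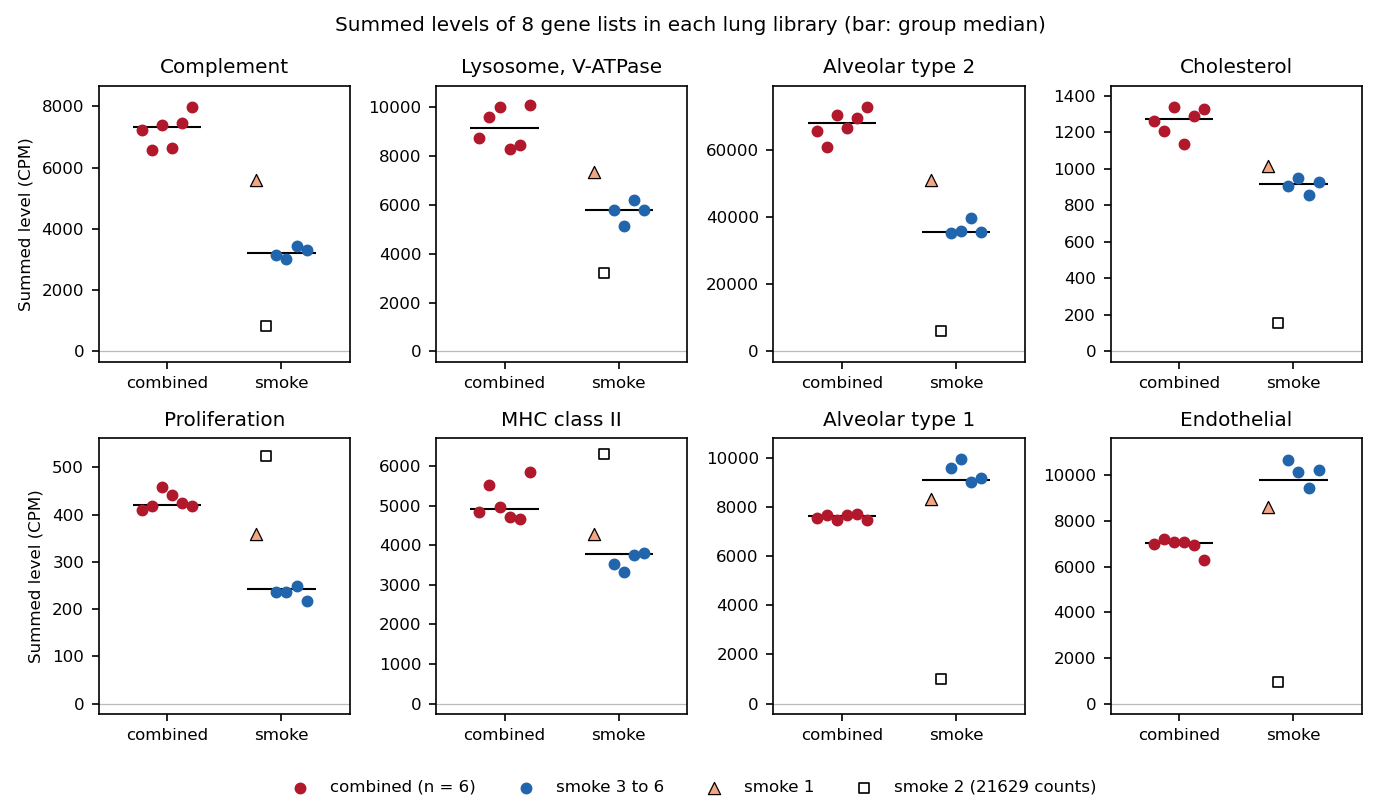
Summed level of 8 gene lists in every library, as CPM on a linear scale, with the 6 combined libraries left of the 6 smoke libraries, bars at the group medians, a triangle for smoke 1 and a square for smoke 2. All combined libraries lie above smoke 1 and smoke 3 to 6 for the first 6 lists and below them for alveolar type 1 and endothelial markers, while smoke 2 lies highest of all for proliferation and MHC class II genes and lowest for the others.

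Endothelial markers had the largest share of lower members among lists with at least 8 tested genes. Of 20 tested 0 were higher and 14 lower, with a median of -0.46, and 17 were lower without smoke 1 and smoke 2. Their summed level was 6305 to 7205 CPM in combined lungs, 9457 to 10682 CPM in smoke 3 to 6 and 8595 CPM in smoke 1. In silica over air 0 of the 20 were lower with edgeR and all libraries, and 13 were without silica 1, smoke 1 and smoke 2. A difference between the silica responses with and without smoke was called for 0 of the 20 with all libraries. The count lower in combined lungs was 7 to 9 without combined 1, 2, 5 or 6 or without smoke 3, 4, 5 or 6. Eng (endoglin, a TGF-beta co-receptor of endothelium) stood at 332 to 399 CPM with a median of 380.3 CPM in combined lungs, against 541 to 679 CPM with a median of 635 CPM in smoke 3 to 6 and 502 CPM in smoke 1. It stayed called as each library was left out (-0.65 ± 0.14, adjusted p = 0.00325), with no overlap between combined libraries and smoke 1 or smoke 3 to 6. Ednrb, the endothelin receptor of lung capillary cells, stood at 161 to 216 CPM in combined lungs and 267 to 301 CPM in smoke 3 to 6 (-0.54 ± 0.11), and Apln, the peptide ligand apelin, at 72.5 to 92.4 CPM and 116 to 157 CPM (-0.63 ± 0.14). Ptprb, the vascular phosphatase VE-PTP, did not pass with all libraries (-0.35 ± 0.19, adjusted p = 0.239) and passed at -0.52 ± 0.11 without smoke 1 and smoke 2 and at -0.47 without smoke 2 alone. It lay at 1375 to 1695 CPM in combined lungs and 2136 to 2439.7 CPM in smoke 3 to 6. Of 17 Wnt pathway genes 0 were higher and 2 lower (Fzd1 and Fzd4), with the Wnt and norrin receptor Fzd4 at 58.1 to 70.0 CPM in combined lungs and 94.7 to 122 CPM in smoke 3 to 6 (-0.70 ± 0.12, adjusted p = 0.000507).

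Crystalline silica is a classic cause of lung fibrosis, and genes of fibrillar matrix were therefore counted too. Of 19 collagen genes 1 was higher and 1 lower (median -0.21), and of 27 matrix and fibrosis genes 2 were higher and 2 lower (median -0.21). Col1a1, the main chain of type I collagen, lay at 62.4 to 117 CPM in combined lungs and 94.2 to 132 CPM in smoke 3 to 6 and did not pass (-0.39 ± 0.38, adjusted p = 0.538). The collagen that rose was Col16a1, a fibril-associated chain, at 246 to 415 CPM with a median of 271 CPM in combined lungs against 99.7 to 168 CPM with a median of 110.5 CPM in smoke 3 to 6 and 140.3 CPM in smoke 1 (1.22 ± 0.17, adjusted p = 9.95e-05), with no overlap. Cthrc1, a secreted protein of activated fibroblasts, rose by 1.26 ± 0.32 at a low level of 4.05 to 7.46 CPM in combined lungs and 1.10 to 3.55 CPM in smoke 3 to 6. Mmp14, a membrane-bound collagenase, rose by 0.64 ± 0.15, while Pdgfra, the growth factor receptor of alveolar fibroblasts, fell by 0.57 to 167 to 215 CPM against 294 to 325 CPM in smoke 3 to 6. The lower collagen was Col4a3 of the basement membrane, and the count of lower collagens was 2 without smoke 1 or without both smoke 1 and smoke 2 and 0 without combined 3 or smoke 3, 4 or 6. The matrix count was 1 higher without smoke 4, 5 or 6 and 1 lower without combined 3, 5 or 6 or smoke 3, 4, 5 or 6.

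Antigen presentation genes had 5 of 17 members higher and 0 lower (median 0.55), the others being RT1-Ba, RT1-Bb and Cd83. The count was 8 without smoke 1 or without both smoke 1 and smoke 2 and 3 without combined 6 or smoke 4. Cd74, the invariant chain of MHC class II, stood at 1399.8 to 1866 CPM in combined lungs and 879 to 1064 CPM in smoke 3 to 6 (0.71 ± 0.15), and the class II alpha chain RT1-Da at 431 to 682 CPM and 243 to 318 CPM (0.74 ± 0.16). T and NK cell genes did not rise as a group, with 1 of 21 higher and 0 lower (median 0.01), or 2 higher without combined 4. The higher member was Icos, the co-stimulatory receptor of activated T cells, which stood at 14.4 to 19.5 CPM in combined lungs and 5.67 to 7.73 CPM in smoke 3 to 6 (1.21 ± 0.22, adjusted p = 0.000952). B and plasma cell genes had 3 of 14 higher (Sdc1, Mzb1 and Irf4), or 1 without smoke 4, and 1 lower. That lower gene was Prdm1, a repressor needed by plasma cells and made in other cells too, at 19.7 to 30.9 CPM in combined lungs and 36.7 to 43.3 CPM in smoke 3 to 6 (-0.54 ± 0.13).

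Genes of DNA replication and mitosis were higher in combined lungs. Of 21 tested 12 were higher and 0 lower, with the highest median of any list with at least 8 tested genes (0.98, and 1.38 without smoke 1 and smoke 2). The count was 15 without smoke 1 and smoke 2, and 6 or 7 without combined 3 or smoke 3, 4 or 6. Their summed level was 409 to 459 CPM in combined lungs, 217 to 249.7 CPM in smoke 3 to 6 and 358 CPM in smoke 1. Rrm2, the subunit of ribonucleotide reductase made in S phase, stood at 5.13 to 16.8 CPM in combined lungs, against 0.506 to 3.55 CPM in smoke 3 to 6 and 3.94 CPM in smoke 1 (2.04 ± 0.40, adjusted p = 0.00195), with no overlap. In silica over air 0 of the 21 genes passed with edgeR and all libraries (median 0.24), and 2 were higher without silica 1, smoke 1 and smoke 2 (Mcm5 and Rrm2, median 0.38). The summed level was 246 to 499 CPM in silica lungs and 218 to 507 CPM in air lungs. A difference between the silica responses with and without smoke was called for 0 of the 21 genes with edgeR and all libraries. Silica 4 held 280484 counts, and voom gave air 6 a quality weight of 0.269, against 1.13 to 1.61 in the other air libraries. No fit left out air 6 or silica 4, and how far the silica over air counts rest on them was not tested.

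Genes of lipid synthesis were higher in combined lungs. Of 19 cholesterol synthesis and uptake genes 13 were higher and 0 lower (median 0.52), 12 were higher without smoke 1 and smoke 2, and 8 without smoke 5. Cyp51, the sterol demethylase, stood at 85.7 to 111 CPM in combined lungs, against 37.6 to 56.4 CPM in smoke 3 to 6 and 72.3 CPM in smoke 1 (0.85 ± 0.15, adjusted p = 0.00077). Idi1, an isomerase of isoprenoid units, rose by 0.81 ± 0.18, and Sqle, the squalene epoxidase, by 0.79 ± 0.18, although combined 4 held 20.5 CPM of Sqle, within the range of smoke 3 to 6. Of 14 fatty acid synthesis genes 9 were higher and 0 lower, or 5 higher without smoke 4. Fasn, the fatty acid synthase, stood at 1736 to 2742 CPM in combined lungs, 953 to 1179 CPM in smoke 3 to 6 and 1741 CPM in smoke 1 (0.97 ± 0.22), and Dgat2, the last enzyme of triglyceride synthesis, rose by 0.68 ± 0.16. In silica over air 0 of the 19 cholesterol genes were higher with edgeR and all libraries (median -0.01), and 5 were without silica 1, smoke 1 and smoke 2 (median 0.00). Air 6, which no fit left out, held 41.1 CPM of Idi1 and 39.3 CPM of Sqle. The other air libraries held 21.4 to 27.1 CPM and 22.5 to 28.2 CPM. Of the 14 fatty acid genes 2 were higher in silica over air (Dgat2 and Acsl4, median 0.09). No difference between the 2 silica responses was called for a gene of these lists.

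Smaller counts were seen in other lists of cell metabolism. Iron handling genes had 5 of 15 higher (Hmox1, Tfrc, Hp, Hpx and Steap3) and 0 lower, with the endosomal iron reductase Steap3 at 1.29 ± 0.32 and overlapping groups. Respiratory chain subunits had 5 of 21 higher (Ndufa2, Sdhb, Cox5b, Cox6c and Atp5a1) and 0 lower, or 2 or 3 without combined 1, 2, 3, 4 or 6 or smoke 3, 4, 5 or 6. Cox6c, a subunit of cytochrome c oxidase, rose by 0.58 ± 0.12 and Sdhb, the iron-sulfur subunit of succinate dehydrogenase, by 0.48 ± 0.10, and both stayed called as each library was left out. Of 19 genes of protein folding in the endoplasmic reticulum and of the ATF4 response 7 were higher and 0 lower, or 4 without combined 3 or smoke 3, 4 or 5. Calr (calreticulin, a calcium-binding chaperone) stood at 649 to 839.6 CPM in combined lungs and 455 to 556 CPM in smoke 3 to 6 (0.53 ± 0.10), the disulfide isomerase Pdia4 rose by 0.44 ± 0.10 and the chaperone complex member Sdf2l1 by 0.89 ± 0.21. Heat shock chaperones had 0 of 12 higher and 1 lower, which was the small heat shock protein Hspb1 at 57.5 to 65.3 CPM in combined lungs and 92.0 to 116 CPM in smoke 3 to 6 (-0.58 ± 0.14). Leaving out smoke 1 and smoke 2 gave 2 higher (Hspa8 and Hspe1), and 1 was higher without smoke 1 alone. Among circadian clock genes 1 of 18 was higher and 2 were lower (Arntl and Npas2). The higher one was the repressor Bhlhe41, at 59.2 to 70.9 CPM in combined lungs and 27.5 to 41.1 CPM in smoke 3 to 6 (0.97 ± 0.22), whereas the lower count was 0 or 1 without combined 2, 3, 5 or 6 or smoke 1 or 4, and 2 genes were higher without combined 2.

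Both groups breathed smoke, so genes that smoke itself is known to induce were compared at equal labelled exposure from week 2 on. Of 24 NRF2 and antioxidant genes 9 were higher and 0 lower (median 0.24). With smoke 1 and smoke 2 left out there were 10 higher and 2 lower, the extracellular enzymes Gpx3 and Sod3, with 1 lower without smoke 1 alone and 2 without smoke 2 alone. Hmox1 (haem oxygenase, which breaks down haem) stood at 69.0 to 104 CPM in combined lungs, 28.4 to 41.9 CPM in smoke 3 to 6 and 66.4 CPM in smoke 1 (1.15 ± 0.24). Srxn1 (sulfiredoxin, which restores oxidised peroxiredoxins) rose by 1.41 ± 0.37, or 2.07 ± 0.39 without smoke 1 and smoke 2, and Slc7a11, the cystine importer, by 1.56 ± 0.36, or 2.19 ± 0.39. The peroxiredoxin Prdx5 rose by 1.12 ± 0.21. Nqo1, the quinone reductase often used as a marker of the pathway, lay at 37.8 to 53.7 CPM in combined lungs and 31.9 to 46.1 CPM in smoke 3 to 6 and did not pass (0.22 ± 0.15, adjusted p = 0.368). The list of targets of the aryl hydrocarbon receptor, which senses compounds of smoke, also holds Ahr, the gene of the receptor itself. It had 0 of 6 members higher and 2 lower (the target Aldh3a1 and Ahr), with 1 lower without smoke 1 and 0 without smoke 3. The aldehyde dehydrogenase Aldh3a1 fell by 1.29 to 0 to 2.57 CPM in combined lungs, against 4.40 to 6.25 CPM in smoke 3 to 6, near the level of 3 counts in combined lungs. Cyp1b1, a cytochrome P450 of the same set, lay at 1.49 to 7.46 CPM in combined lungs and 4.97 to 7.70 CPM in smoke 3 to 6 (-0.53 ± 0.36, adjusted p = 0.35).

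The genes with the largest falls were of mixed kinds. Mb (myoglobin) and Myh7 (a slow myosin of heart and muscle) are both known from cardiac muscle. They stood at 0 to 3.68 CPM and 0 to 5.60 CPM in combined lungs, against 5.06 to 29.4 CPM and 6.08 to 19.1 CPM in smoke 3 to 6. Smoke 1 held 3.94 CPM of Mb, next to the combined range, and 1.64 CPM of Myh7, within it. Smoke 2 held 0 counts of Mb and 4 counts of Myh7. Mb fell by 3.19 on the log2 scale (adjusted p = 0.0028), with -2.44 without smoke 3 and -4.07 without combined 1, and Myh7 by 3.01 (adjusted p = 0.00704), with -3.79 without combined 1. Of 10 cardiac muscle markers 0 were higher and 0 lower, at a summed 183 to 567 CPM in combined lungs and 372 to 459.6 CPM in smoke 3 to 6. Abca8, a lipid transporter, stood at 11.1 to 16.8 CPM in combined lungs, 23.4 to 34.6 CPM in smoke 3 to 6 and 28.3 CPM in smoke 1 (-1.10 ± 0.14, adjusted p = 2.39e-05). Hoxb5, a homeobox factor of lung mesenchyme, stood at 1.12 to 5.60 CPM and 5.06 to 8.09 CPM in those groups, which overlapped (-1.22 ± 0.30). The ribosomal precursor Rn45s, which the library kit depletes, was called lower (-4.28 ± 1.01) with 2025 CPM in smoke 3, at most 14.2 CPM in the other smoke libraries and 5.60 to 54.9 CPM in combined lungs. Without smoke 3 it stood at 1.15 (adjusted p = 0.283), and with voom it did not pass. Erythroid genes had 4 of 10 lower with all libraries and 0 without smoke 2, the library rich in haemoglobin. The 4 were the haemoglobin genes Hba1, Hba2, Hbb and Hbb-b1.

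**Figure D3:**
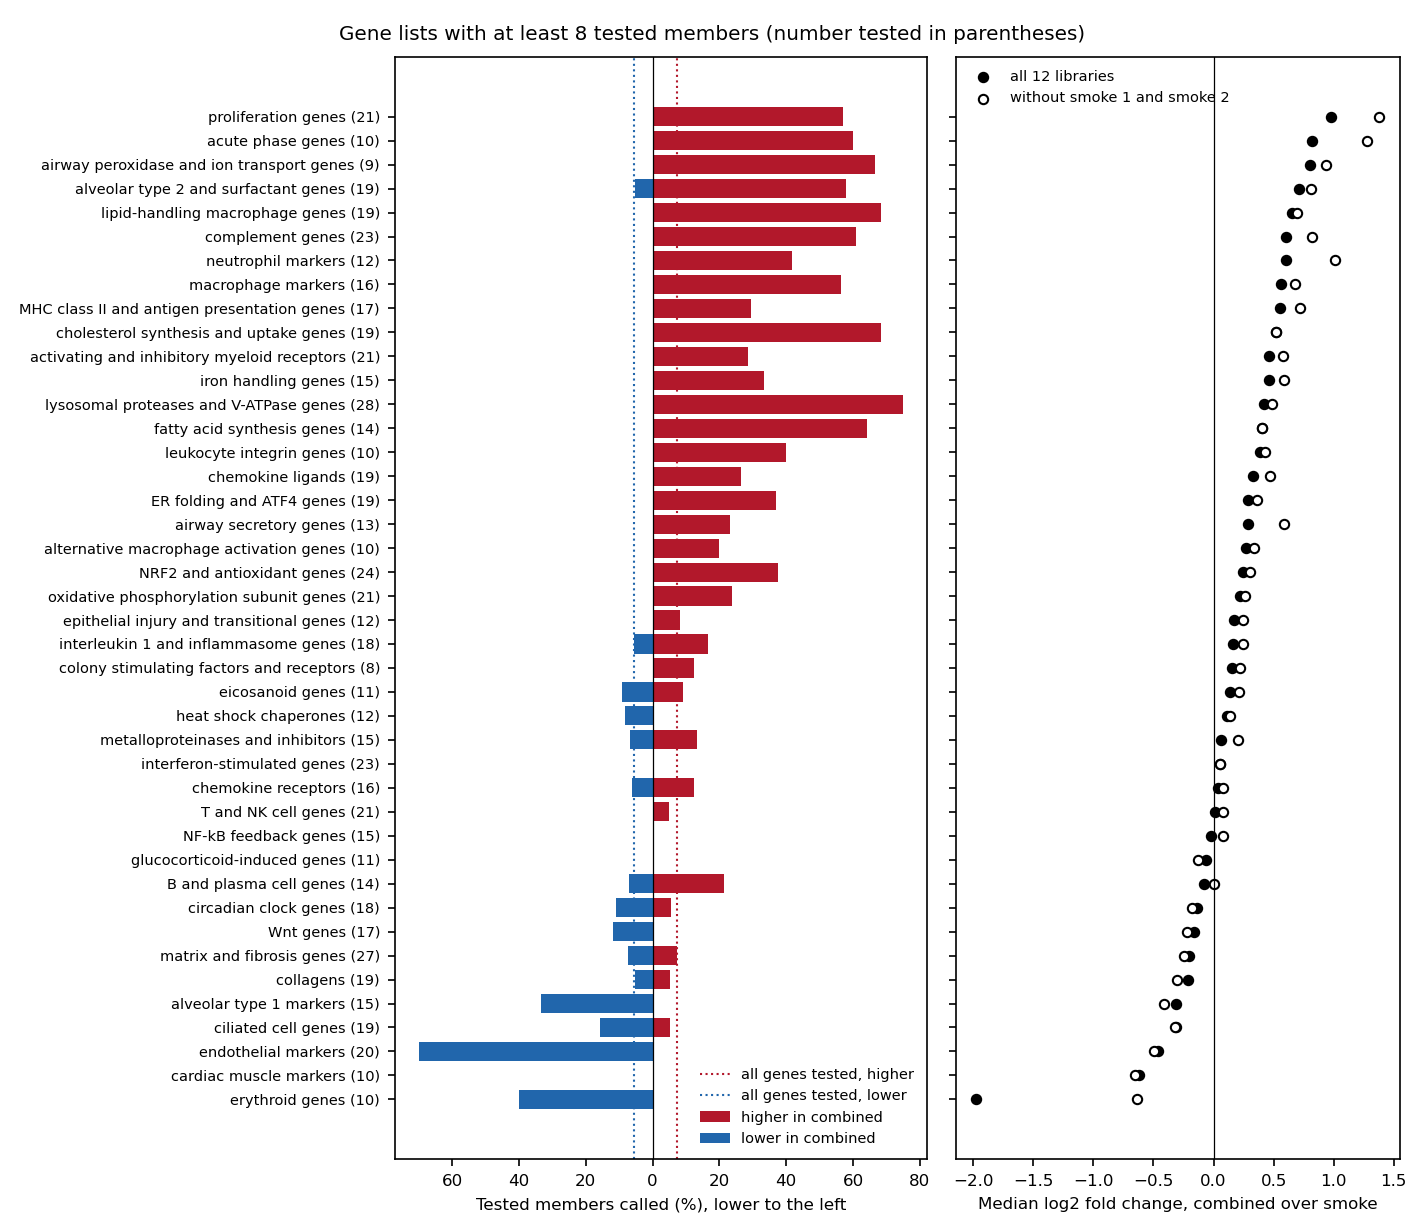
Left, percentage of tested members of each gene list called higher (right of 0) or lower (left of 0) in combined than in smoke lungs, with dotted lines at the percentages over all genes tested. Right, the median log2 fold change of each list in the fit to all 24 libraries (filled, marked as all 12 libraries) and without smoke 1 and smoke 2 (open). In the fit to all libraries 21 of 28 lysosome genes were higher and 14 of 20 endothelial markers lower.

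The silica response with smoke was then set against the silica response without it, in silica and air lungs, which share no library with the 12 above. Silica over air gave 287 higher (2.15%) and 135 lower genes (1.01%), and 816 higher (5.97%) and 792 lower (5.80%) without silica 1, smoke 1 and smoke 2. Of the genes higher in combined over smoke, 213 were also higher in silica over air, which is 21.8% of the combined list and 74.2% of the silica list. The lower lists shared 56 genes, 7.55% of the combined list and 41.5% of the silica list, and no gene was called in opposite directions. Without silica 1, smoke 1 and smoke 2 the lists shared 611 higher and 478 lower genes, and 1 gene, Klf10, was called in opposite directions. Silica 1 and smoke 1 stood out by their levels of genes tested here. The larger counts of called and shared genes without them thus follow in part from that choice and are no separate evidence. The interaction, which is the combined over smoke difference minus the silica over air difference, was called for 0 genes with edgeR, while 977 had an unadjusted p under 0.05. DESeq2 called 1 gene, Alb (albumin), voom with quality weights called 9 and edgeR without silica 1, smoke 1 and smoke 2 called 0. Without smoke 1 and smoke 2 edgeR called 5 (0.0367%), which were Gsdmd and Rnaset2 with positive and Prdm1, Gnao1 and Synpo with negative interactions. Prdm1, Gsdmd, Gnao1, Synpo and Klf10 were among the 9 called with voom.

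Values lay side by side as follows. Spp1 stood at 3.99 ± 0.51 in combined over smoke and 4.39 ± 0.60 in silica over air, with an interaction of -0.40 ± 0.88 (adjusted p = 0.973). Without silica 1, smoke 1 and smoke 2 it stood at 5.43 ± 0.37 and 4.67 ± 0.33, and the interaction turned to 0.77 ± 0.66 (adjusted p = 0.783). Retnla stood at 3.69 ± 0.55 and 3.41 ± 0.57 with all libraries (interaction 0.28 ± 0.82), and at 5.49 ± 0.37 and 3.67 ± 0.29 without the 3 (interaction 1.82 ± 0.54, adjusted p = 0.263). How close these pairs lie thus depended on the libraries in doubt. Chia stood at 2.55 ± 0.38 and 2.64 ± 0.37 with all libraries and at 3.09 ± 0.15 and 2.88 ± 0.13 without the 3. Duox1 stood at 1.85 ± 0.20 with smoke and 0.79 ± 0.21 without it (interaction adjusted p = 0.346), and Col16a1 at 1.22 ± 0.17 and 0.33 ± 0.17 (0.34). Among the 5 genes with the smallest interaction p were Spry4, an inhibitor of growth factor signalling, Klf10, a TGF-beta-induced transcription factor, and Prdm1. Spry4 stood at -0.71 ± 0.13 with smoke and 0.19 ± 0.13 without it, and Klf10 at -0.44 ± 0.11 and 0.33 ± 0.11 (interaction adjusted p = 0.178 for both). Prdm1 stood at -0.54 ± 0.13 and 0.31 ± 0.13 (interaction adjusted p = 0.215, 0.0437 without smoke 1 and smoke 2 and 0.0738 without silica 1 as well). These 3 genes were lower in combined than in smoke lungs and did not pass in silica over air with all libraries, where Klf10 passed at 0.35 without silica 1, smoke 1 and smoke 2 (adjusted p = 0.0304).

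**Figure D4:**
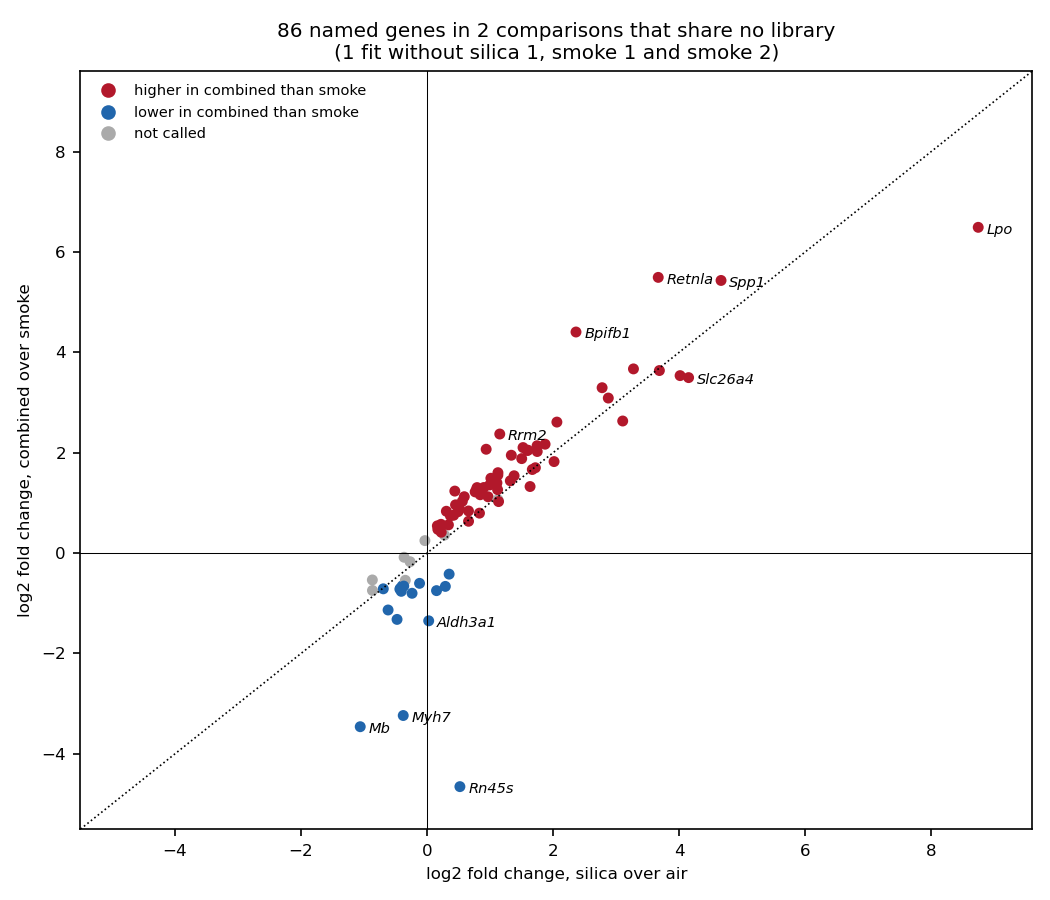
Log2 fold changes of 86 of the genes named here, silica over air on the horizontal axis and combined over smoke on the vertical axis. Values are from 1 fit without silica 1, smoke 1 and smoke 2, coloured by the call in the fit to all libraries, with a dotted line of equal values. Lpo, Spp1 and Retnla lie farthest to the upper right, and Rn45s, Mb and Myh7 lie lowest on the vertical axis.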

How the data were processed

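Total RNA from a piece of lung was depleted of ribosomal RNA and sequenced with a stranded kit, per the labels' protocols. The authors deposited 1 table of read counts per gene for 24 libraries, in 4 groups of 6. Tools named in the submitters' processing notes were HTSeq 0.11.2, HISAT2 2.1.0, SAMtools 1.8, Trimmomatic 0.35, bcl2fastq 2.19 and Cufflinks. The sources used here do not give the genome build, annotation or strand setting of the counting. Reads of overlapping, antisense or near-identical genes (Hba1 and Hba2, RT1 genes) may be shared. Of 30069 lines 26 repeats were removed.

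Counts were filtered with filterByExpr (minimum count 10) and tested with the quasi-likelihood test of edgeR 4.0.16 (R 4.3.3, TMM scaling) in 1 fit of all 24 libraries with 20 residual degrees of freedom. P-values were adjusted over all genes tested by the Benjamini-Hochberg method, with a threshold of 0.05. The standard error of a log2 fold change was taken as its size over the root of the F statistic. DESeq2 1.42.0 and limma 3.58.1 (voom with quality weights) were alternatives, as were other scaling and filters, the 12 libraries alone and libraries left out. The procedure was tested on simulated data. No 2 of the 12 libraries agreed within sampling noise (lowest chi-square per degree of freedom 1.73, combined 4 and combined 5). Nothing in the labels pairs rats across groups, and p-values measure the spread between rats as labelled.

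The members and the 46 gene lists were chosen with earlier results of these data known. Genes named were the 12 largest rises and falls with a mean of at least 5 CPM, from each list up to 4 members that were called and its most abundant member that was not, a fixed set of 12, and the 5 genes with the smallest interaction p, of which some were left out. Members of counts of 5 or fewer, promoter motifs, Ctsd and Lamp1 were chosen after their values were seen, and some of these members are not reported here.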

Additional observations from a re-analysis of the deposited data

Results flagged for a closer look

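Single libraries lay apart from the other 5 of their group in 47 of 172 checks of a named gene in combined or smoke lungs, by Dixon's gap test at its 95% limit. Chance gives such a gap in about 1 in 20 groups. All values are CPM.

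Smoke 2 was the library in 26 of them, at 21629 counts in all, where 1 count stands at 52.5 CPM. It held 419.9 for Sftpc, 209.9 for Ptprb, 209.9 for Myh7, 157.5 for S100a8, 105.0 for Eng, 105.0 for Lamp1, and 52.49 for Il33, Ager and Pdgfra. It held 0 for Cd163, Cxcl17, Rtkn2, Apln, Fzd4, Mmp14, Icos, Aldh3a1, Idi1, Sqle, Bhlhe41, Cox6c, Sdhb, Pdia4, Abca8, Hoxb5 and Klf10.

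Smoke 1 lay above the other smoke libraries for 12 genes. It held 32.86 for Spp1, 56.86 for Mmp12, 10.52 for Ccl7, 92.02 for Lilrb4, 50.61 for Cfi, 144.9 for C4bpa, 647.1 for Chia, 393.7 for Chi3l1, 44.70 for Lpo, 133.8 for Slc26a4, 53.57 for Bpifb1 and 24.32 for Srxn1. Smoke 3 lay high for Mb at 29.43 and for Rn45s at 2025.

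Among combined libraries, combined 6 lay high for Il1rn at 84.71, Duox1 at 62.64, Sftpd at 1927 and Col16a1 at 415.4. Combined 3 lay high for Chi3l1 at 706.5. Combined 4 lay low for Aldh3a1 at 0 and for Sqle at 20.53.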

How the results depend on the processing

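The higher count of 976 was 518 with DESeq2, 1764 with voom and quality weights and 581 to 1263 as each of the 12 libraries was left out. It was 910 with RLE scaling, 865 without a filter, 952 with a filter of 1 CPM in 6 libraries, 1260 with the 12 libraries alone and 1354 without silica 1, smoke 1 and smoke 2. The lower count of 742 was 1149 without smoke 1 and smoke 2, 1394 without silica 1 as well, 491 with DESeq2, 1603 with voom and 324 to 949 as each library was left out. Under RLE scaling, no filter, the stricter filter and the 12 libraries alone it was 862, 668, 691 and 1064. In silica over air the higher count of 287 was 816 without the 3 libraries, 168 with DESeq2, 574 with voom and 264 to 370 in the leave-one-out fits. The lower count of 135 was 221 without smoke 1 and smoke 2, 792 without the 3 libraries, 329 with voom and 95 to 196 in the leave-one-out fits. Those fits dropped combined or smoke libraries only, and no silica or air library was dropped singly. The interaction count of 0 was 5 without smoke 1 and smoke 2, 1 with DESeq2, 9 with voom and 0 in every leave-one-out fit. Rn45s turned to 1.15 without smoke 3, and its leave-one-out values ran from -4.78 to 1.15; the cause was not tested. A set of 78 of the called genes named was followed through the fits, and all 78 stayed called without smoke 1 and smoke 2. List members and the largest rises and falls were named only if called in that fit. For these genes the count was therefore set by the choice. No call was lost for 75 of the 78 in the leave-one-out fits and for 74 in any alternative. Lyz2 and the haemoglobin genes were not in the set. Lyz2 lost its call in the fits given above. Hba1 and Hbb lost theirs without smoke 1 and smoke 2 (edgeR adjusted p = 0.159 and 0.202). A gene without an adjusted p in a fit was not counted as lost there. With DESeq2 the result was the same for 72 of a set of 86 named genes and weaker for 1, and the rest of the set had no result. A few named genes also had no result with the 12 libraries alone and in some leave-one-out fits. The 75 and 74 are therefore not all shown to stay called in every fit. Of 1800 list counts under an alternative, 1527 lay within 1.5 times the count with all libraries. No paired analysis was possible because the labels give the rats no shared replicate numbers and the numbers used here follow the order of deposit. Depth limits genes near 3 counts, or 0.986 to 2.80 CPM, and smoke 2 cannot show genes below 139 CPM of its own total.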

Other observations

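Several lists not described above had few called genes. No interferon-stimulated gene of 23 passed in either direction with edgeR and all libraries (median 0.05), 1 was higher without combined 3, without smoke 1 or without smoke 2, and 1 was lower without smoke 2. Without smoke 1 and smoke 2 there were 2 higher and 1 lower. Glucocorticoid-induced genes had 0 of 11 higher and 0 lower, and NF-kB feedback genes 0 of 15 and 0, with 1 higher in each list without smoke 1, or without smoke 1 and smoke 2. Metalloproteinases and their inhibitors had 2 of 15 higher (Mmp12 and Mmp14) and 1 lower (Adamts1), with 2 lower without smoke 2 and 0 without smoke 6. Without smoke 1 and smoke 2 there were 4 higher, with Mmp19 and Adam9 added, and 2 lower, with Timp3 added. Colony stimulating factors and their receptors had 1 of 8 higher, the macrophage growth factor Csf1, with 3 without smoke 1 or without both smoke 1 and smoke 2, 2 without combined 4 or 5 or smoke 2, and 0 without combined 6 or smoke 3 or 4. In the epithelial injury list 1 of 12 genes was higher, Lgals3, and 2 were without smoke 2, 4 or 6, or without smoke 1 and smoke 2.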
